A study of Mus musculus with 6 samples.

Results

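Lysosomal hydrolases and lysosomal membrane proteins were followed as a set of 37 genes in mouse liver. The set held 12 proteases, 12 glycosidases and sulfatases, 4 lipid hydrolases, 3 activator proteins, 5 membrane proteins and Tfeb, the transcription factor known for driving lysosomal genes. Members were taken by gene symbol, and each of the 37 was found among the 55487 genes of the deposited tables. No measured value entered their choice as given, although results of these data were known when the set was proposed.

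The livers came from male C57/Bl6J mice on a high-fat diet (HFD), 3 control libraries and 3 mutant libraries in all. Per the genotype labels, the controls were Alb cre +/- and the mutants were RXRa f/f with the same Alb cre +/-, so Cre recombinase under the albumin promoter was shared by both groups. The series text describes the mutants as carrying the S65A form of Rxra, while the sample titles call the controls WT and the mutants Cre. The albumin promoter is active in hepatocytes, so the macrophages and other cells of these livers are not its target. RXRα, the product of Rxra, is a nuclear receptor that pairs with receptors of lipid, bile acid and retinoid signals. The comparison of mutant with control livers addressed what this change does to liver transcripts under the diet.

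Lysosomes are acidic compartments in which proteins, glycans and lipids taken up from outside the cell or delivered by autophagy are broken down. Soluble hydrolases do this work, small activator proteins present lipids to them, and heavily glycosylated membrane proteins shield the organelle's rim and carry products and ions across it. In liver, hepatocytes hold lysosomes for autophagy and lipid turnover, and Kupffer cells, the resident macrophages, hold many lysosomes for the material they engulf. TFEB is known to enter the nucleus when nutrients are short and to bind promoters of lysosomal genes at the letters CACGTG, often within TCACGTGA.

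Library totals lay between 35847386 and 43162557 estimated counts. Levels are given as CPM, the estimated count relative to library size, after TMM scaling, which sets the typical gene equal in both groups. The major urinary protein (Mup) genes took 1.85 to 3.09% of the counts in the controls and 12.8 to 16.9% in the mutants. Rxra itself stood at 501, 471 and 414 CPM in control replicates 1 to 3 and at 700, 522 and 609 CPM in mutant replicates 1 to 3 (log2 fold change 0.40 ± 0.13 SE, adjusted p = 0.0724). Gene-level values do not show which form of Rxra was transcribed. Of the 14286 genes tested, 13.5% passed an adjusted p of 0.05 in either direction.

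All 37 lysosomal genes passed the filter on low counts. In the mutant livers 10 of them fell (27% of the 37), against 6.82% of all tested genes, and 1 rose (2.7%), against 6.64% of all tested genes. The genes that fell were Hexa, Ctsb, Lipa, Cd68, Lgmn, Ctsa, Asah1, Ctsd, Ctss and Ppt1, and the gene that rose was Ctsf. The other 26 did not pass the test. The log2 fold change was negative for 26 members and positive for 11, with a median of -0.25 beside 0.00 over all tested genes. In 22 members (59.5%) the control and mutant libraries did not overlap in CPM, with every mutant library below every control for 19 of them and above for 3. The share of all tested genes without overlap was 34.9%. On deposited TPM, which are not TMM-scaled, 33 members had every mutant library below every control and 0 above (89.2%, beside 66.4% of all tested genes). With library totals in place of TMM, 25 members passed as lower and 0 as higher, beside 31.6% and 2.05% of all tested genes, and 35 had a negative log2 fold change. The median of all genes was then -0.40 and that of the members -0.65. A change of scaling alone shifts every gene by nearly the same amount. The distance of -0.25 between the medians is therefore held by arithmetic and is not a separate result.

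**Figure D1:**
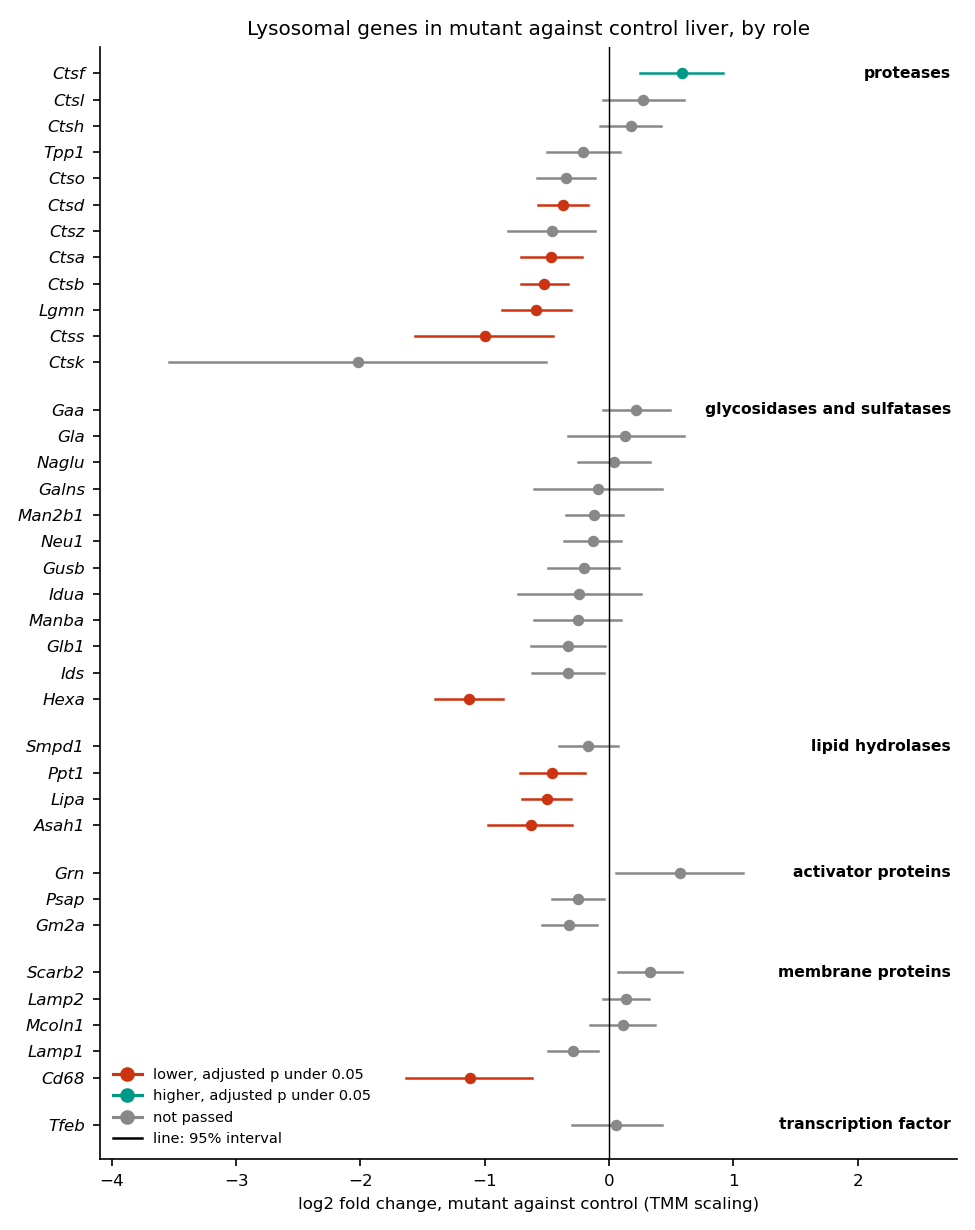
Log2 fold change of each of the 37 lysosomal genes, mutant against control, with 95% intervals from edgeR, grouped by role (n = 3 libraries per group, TMM scaling). The 10 red points are the members that fell, led by Hexa at -1.13 and Cd68 at -1.12, and the green point is Ctsf at 0.59. Ctsk has the lowest value, -2.02, with a wide interval.

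The control libraries were not alike for these genes. Control replicate 3 was the lowest of the controls in 28 of the 37 members (75.7%), while it was the lowest control in 36.2% of all tested genes. Control replicate 1 was the highest control in 22 members (59.5%), beside 33.9% of all tested genes. Leaving out control replicate 3 gave 8 lower members and 0 higher, and leaving out control replicate 1 gave 3 lower and 0 higher. No label states that the libraries came from different animals, so p-values reflect only how much these libraries vary.

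Short stretches of promoter DNA are shown for the 4 genes that passed the test with the smallest p among members holding the letters TFEB is known to bind. RefSeq promoter windows of 300 bases (250 before to 50 after the start site, build GRCm38.p6) were found for 33 of the 37 members. Asah1, Ctsb, Galns and Ctsh were not matched. CACGTG, a palindrome and so the same on both strands, was present in 11 of the 33 (33.3%) and in 2187 of 27025 genes with a window (8.09%). TCACGTGA, which contains CACGTG, was present in 4 (12.1%), namely Ctsa, Ctsd, Gla and Mcoln1, and in 304 genes (1.12%). A direct repeat of AGGTCA 1 base apart, on either strand, was in 0 of the 33 windows and in 13 genes (0.0481%). Of the 8 lower members with a window, 3 held CACGTG (Ctsa, Ctsd and Lgmn), and Ctsf, which rose, held it as well. The other 7 members with CACGTG were Ctsl, Gaa, Gla, Glb1, Naglu, Lamp1 and Mcoln1, and none of these passed the test. The stretches follow 5′ to 3′ on the gene's strand, with the motif in capitals. Positions are those of the first base of CACGTG, with the RefSeq start site of that window as 1, the base before it as -1 and no position 0.
Ctsa, chr2:164833749-164833778, + strand, position -12, in the 5′ UTR of an annotated transcript: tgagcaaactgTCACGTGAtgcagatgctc
Ctsa, chr2:164833766-164833795, + strand, position 6, in the 5′ UTR of an annotated transcript: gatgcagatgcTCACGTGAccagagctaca
Ctsd, chr7:142387908-142387937, - strand, position -98, in the 5′ UTR of an annotated transcript: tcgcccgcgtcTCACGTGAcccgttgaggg
Lgmn, chr12:102439124-102439153, - strand, position -49, in an annotated intron: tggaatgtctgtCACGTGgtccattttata
Ctsf, chr19:4855074-4855103, + strand, position -79, upstream of the gene: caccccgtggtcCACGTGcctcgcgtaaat
Ctsa thus carries the extended motif at 2 places, on either side of 1 of its RefSeq start sites, and Ctsd carries it once. Ctsd also holds CACGTG at position -245, outside the extended motif. That site is not printed because its 30-base stretch would leave the window. Lgmn and Ctsf carry the core letters without the full extended motif. Ctsa and Lgmn each have another RefSeq window that held no CACGTG. The 250 upstream bases of these windows lie at chr2:164832622-164832871 and chr12:102439729-102439978. A gene was counted if any of its windows held the motif.

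Proteases held 5 of the 10 genes that fell and the gene that rose. Over the 12 proteases, 41.7% were lower and 8.33% higher, with a median log2 fold change of -0.42. Cathepsin B (Ctsb, chr14:63122462-63145923, + strand, mm10), an abundant cysteine protease of liver, was measured at 623, 632 and 593 CPM in control replicates 1 to 3 and at 410, 438 and 442 CPM in mutant replicates 1 to 3. The groups were far apart relative to their spread, and the fold change was 1.43-fold lower (log2 -0.52 ± 0.08 SE, adjusted p = 0.00676). Of the annotated Ctsb exon bases, 774 (12.8%) are shared with Fdft1 on the opposite strand, a gene of sterol synthesis that stood at 117 CPM in control livers and 81 CPM in mutant livers. Whether the libraries kept strand is not given in the sources used here, so reads in that stretch cannot be told apart. Ctsb passed the test with each of the 6 libraries left out in turn.

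Cathepsin S (Ctss, chr3:95526786-95556403, + strand), the protease of antigen-presenting cells that trims the invariant chain, had 53.1, 42.0 and 27.9 CPM in control livers and 22.8, 15.6 and 22.9 CPM in mutant livers. The lowest control, replicate 3, lay above the highest mutant library. Its fold change was 2.01-fold lower (log2 -1 ± 0.24 SE, adjusted p = 0.0314). Legumain (Lgmn, chr12:102394084-102439813, - strand), which cuts after asparagine and activates cathepsins, had 74.5, 58.7 and 61.2 CPM in control livers and 42.5, 40.5 and 46.4 CPM in mutant livers. Every mutant library was below every control, at 1.5-fold lower (log2 -0.59 ± 0.12 SE, adjusted p = 0.0177).

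Cathepsin A (Ctsa, chr2:164832873-164841032, + strand), a carboxypeptidase that also protects the sialidase Neu1 and the galactosidase Glb1 in a complex, had 193, 205 and 167 CPM in control livers and 143, 126 and 140 CPM in mutant livers. The groups did not overlap, and the level was 1.38-fold lower (log2 -0.47 ± 0.11 SE, adjusted p = 0.0265). Ctsa shares 495 exon bases (10.5% of its own) with Pltp on the opposite strand, the phospholipid transfer protein gene, which fell from 155 to 23.7 CPM (log2 -2.71, adjusted p = 0.00049). The part of the shared bases in the Ctsa value was not tested. The partners that Ctsa protects gave smaller values that did not pass, -0.13 for Neu1 (adjusted p = 0.428) and -0.33 for Glb1 (adjusted p = 0.137).

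Cathepsin D (Ctsd, chr7:142375911-142388038, - strand), the main aspartic protease of lysosomes, had 390, 390 and 373 CPM in control livers and 282, 319 and 289 CPM in mutant livers. All mutant libraries were lower, with a 1.29-fold difference (log2 -0.37 ± 0.09 SE, adjusted p = 0.0288), the smallest in size among the members that passed. Ctsd shares 808 exon bases (34.4% of its own) with Gm49369 on the same strand, where strand cannot tell reads apart. Gm49369 was listed at 0.125 CPM in control livers and 0.113 CPM in mutant livers. Cathepsin F (Ctsf, chr19:4855130-4860918, + strand), another cysteine protease, went the other way, with 24.6, 24.0 and 17.8 CPM in control livers and 35.4, 34.1 and 30.1 CPM in mutant livers. It was 1.5-fold higher (log2 0.59 ± 0.15 SE, adjusted p = 0.0346). Under library totals the log2 fold change of Ctsf was 0.19 (adjusted p = 0.34) against a median of -0.40 over all genes, and by limma on TPM it was 0.00 (adjusted p = 0.999).

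These protease calls differed in whether they passed with 1 library left out. Such fits have fewer libraries, and over all genes the lower calls went from 974 to between 430 and 756. A lost call thus does not by itself show dependence on 1 library. The log2 fold changes ran from -0.65 to -0.47 for Lgmn, -0.54 to -0.40 for Ctsa and -1.21 to -0.77 for Ctss. They ran from -0.44 to -0.34 for Ctsd and 0.46 to 0.67 for Ctsf. Lgmn lost its call without control replicate 1 and without mutant replicate 1, with adjusted p up to 0.0627. Ctsa and Ctss kept theirs only when control replicate 3 was left out, with adjusted p up to 0.09 and 0.0938. Ctsd kept its call only without mutant replicate 2, and Ctsf only without mutant replicate 3, with adjusted p up to 0.111 for each.

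Of the 6 proteases that did not pass, the largest value was that of cathepsin K (Ctsk), a collagen-degrading enzyme best known from osteoclasts. It stood at 1.02, 0.381 and 1.08 CPM in control livers and at 0.314, 0.186 and 0.0967 CPM in mutant livers. All mutant libraries were below all controls, but the estimated counts were only 47.4, 16.9 and 47.8 against 12, 6.04 and 3.01, and the log2 fold change of -2.02 ± 0.66 SE had an adjusted p of 0.0817. Cathepsin L (Ctsl), an endopeptidase of autophagic turnover, ranged from 415 to 512 CPM in control livers and from 451 to 627 CPM in mutant livers (log2 0.27, adjusted p = 0.247). Cathepsin Z (Ctsz) gave -0.46 (adjusted p = 0.0846), cathepsin O (Ctso) -0.35 (0.0616), the tripeptidyl peptidase Tpp1 -0.21 (0.326) and cathepsin H (Ctsh) 0.18 (0.319) as log2 fold changes with adjusted p. Ctsz passed as lower by DESeq2 (adjusted p = 0.0308) and without the filter on low counts (0.0294), and Ctso passed as lower with a filter on CPM (0.0439). The Ctsz and Ctso libraries did not overlap between groups, whereas those of Ctsl, Tpp1 and Ctsh did.

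**Figure D2:**
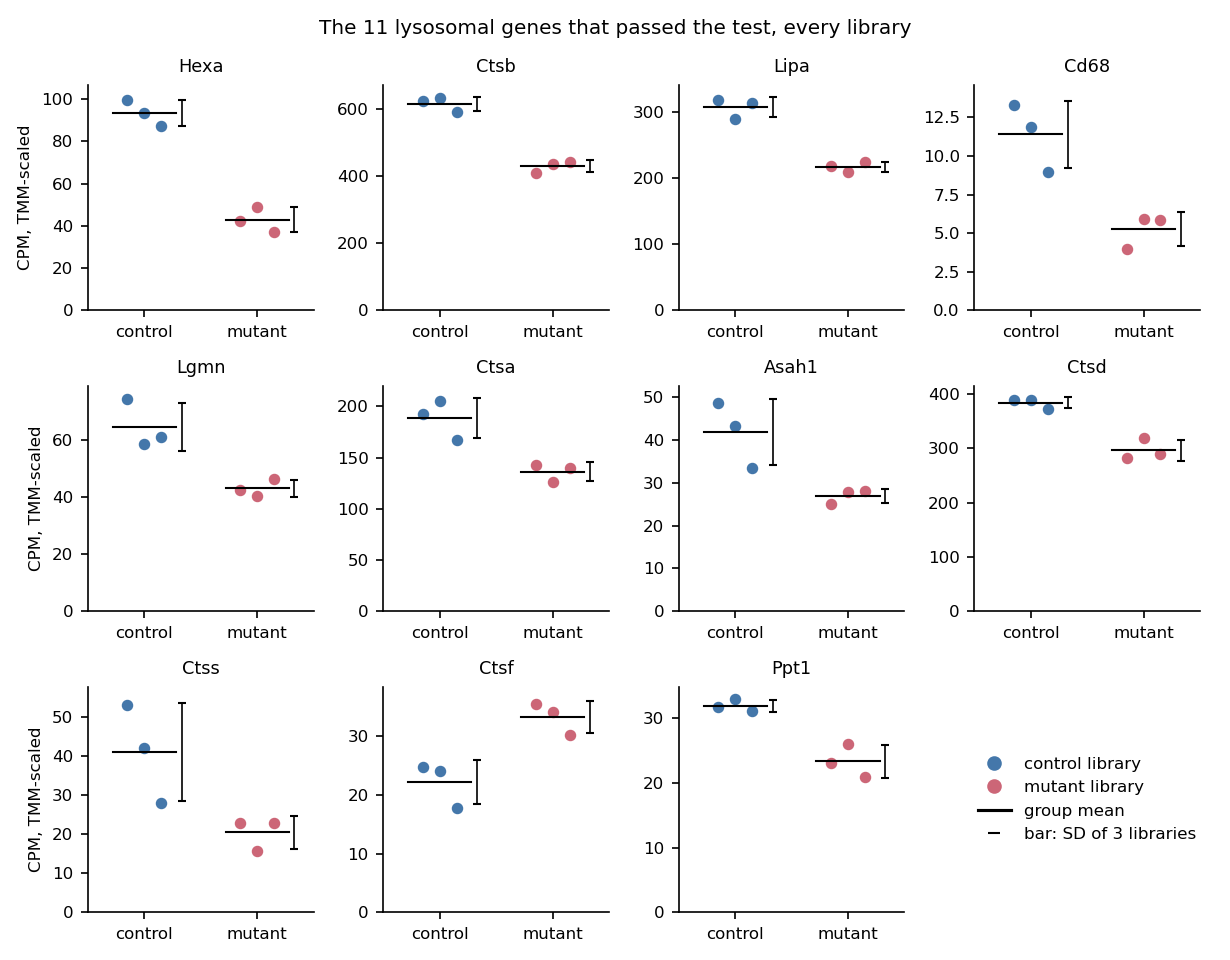
TMM-scaled CPM in every library for the 11 lysosomal genes that passed the test, in order of p, each panel with its own axis from 0. Points are libraries, lines are group means and bars are the SD of 3 libraries. In each panel the groups do not overlap, and Ctss shows the widest control spread for its level, with control replicate 3 the lowest.

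Of the 12 glycosidases and sulfatases, which remove sugars and sulfate groups from glycans and glycolipids, 1 fell (8.33%) and 0 rose. Hexa (chr9:59539540-59565109, + strand), the α subunit of β-hexosaminidase, which clears gangliosides, had 99.6, 93.5 and 87.4 CPM in control livers and 42.5, 48.9 and 37.1 CPM in mutant livers. The lowest control was well above the highest mutant library. Hexa was 2.18-fold lower (log2 -1.13 ± 0.12 SE, 95% interval -1.40 to -0.85, adjusted p = 0.00122), the smallest p of the 37 genes, and it passed the test with each library left out in turn. It shares 255 exon bases (12.8%) with Tmem202, which was nearly absent (0.00725 CPM in control livers and 0.0584 CPM in mutant livers).

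The other 11 members of this group did not pass. Their log2 fold changes lay between -0.33 and 0.22 around a group median of -0.17. The heparan and dermatan sulfate enzymes gave -0.33 for Ids (adjusted p = 0.13), -0.24 for Idua (0.521) and 0.04 for Naglu (0.885), and the keratan sulfate enzyme Galns gave -0.09 (0.842). The 95% interval for Naglu ran from -0.25 to 0.33, so a change of that size in either direction is within the error. Acid α-glucosidase (Gaa), which degrades glycogen, had 111, 109 and 91 CPM in control livers and 134, 108 and 120 CPM in mutant livers (log2 0.22, adjusted p = 0.266), with overlapping groups. The galactosidase Gla gave 0.13 (0.72), β-glucuronidase (Gusb) -0.20 (0.324), and the mannosidases Manba and Man2b1 gave -0.25 (0.316) and -0.12 (0.463). Of these 11, the libraries of only Glb1 and Ids did not overlap between groups, both with the mutants lower.

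Among the 4 lipid hydrolases 3 fell (75%), and all 4 had every mutant library below every control. Lysosomal acid lipase (Lipa, chr19:34492318-34527474, - strand), which frees cholesterol and fatty acids from lipoprotein lipids, had 319, 290 and 314 CPM in control livers and 218, 209 and 224 CPM in mutant livers. The spread within each group was small, and the level was 1.42-fold lower (log2 -0.50 ± 0.09 SE, adjusted p = 0.00865). Acid ceramidase (Asah1, chr8:41340197-41374773, - strand), which splits ceramide, had 48.5, 43.2 and 33.4 CPM in control livers and 24.9, 27.7 and 28 CPM in mutant livers. Its controls were more spread than its mutants, and it was 1.55-fold lower (log2 -0.63 ± 0.15 SE, adjusted p = 0.0281).

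Palmitoyl-protein thioesterase (Ppt1, chr4:122836242-122859175, + strand), which strips fatty acyl groups from proteins, had 31.7, 32.9 and 31.1 CPM in control livers and 23.0, 26.0 and 20.9 CPM in mutant livers. It was 1.37-fold lower (log2 -0.46 ± 0.11 SE, adjusted p = 0.0357). Acid sphingomyelinase (Smpd1) had 37.9, 42.8 and 38.7 CPM in control livers and 33.5, 37.3 and 35.4 CPM in mutant livers (log2 -0.17, 95% interval -0.40 to 0.07, adjusted p = 0.32). Its groups did not overlap, but the gap between them was narrow. Lipa passed with each library left out in turn, Asah1 only without control replicate 3 (adjusted p up to 0.0949) and Ppt1 only without mutant replicate 2 (adjusted p up to 0.116).

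Of the 3 activator proteins 0 passed the edgeR test, although all 3 had an unadjusted p under 0.05, and DESeq2 called 1 higher (Grn). Prosaposin (Psap), the precursor of the saposins that present sphingolipids to their hydrolases, had 834, 796 and 710 CPM in control livers and 674, 647 and 644 CPM in mutant livers (log2 -0.25 ± 0.09 SE, adjusted p = 0.112). Gm2a, which lifts ganglioside for the hexosaminidase that Hexa encodes a subunit of, had 69.6, 65.4 and 67.3 CPM in control livers and 54.7, 57.2 and 50 CPM in mutant livers (log2 -0.32 ± 0.10 SE, adjusted p = 0.0605). Both had all mutant libraries below the controls, and Gm2a passed as lower with a filter on CPM (adjusted p = 0.0414). Progranulin (Grn), a growth factor-like protein cut into granulins in lysosomes, had 246, 242 and 149 CPM in control livers and 394, 243 and 310 CPM in mutant livers. Its log2 fold change of 0.57 ± 0.22 SE was close in size to that of Ctsf, but mutant replicate 2 fell among the controls and the adjusted p was 0.133.

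Membrane proteins differed among themselves, with 1 of 5 lower (20%) and a median of 0.11. Cd68 (chr11:69664213-69666153, - strand), a glycoprotein of late endosomes used as a macrophage marker, had 13.3, 11.9 and 9 CPM in control livers and 3.98, 5.92 and 5.84 CPM in mutant livers. The groups did not overlap, and Cd68 was 2.18-fold lower (log2 -1.12 ± 0.22 SE, adjusted p = 0.0153). It lost its call without control replicate 1 or control replicate 2 (adjusted p up to 0.0587). Lamp1 and Lamp2, the most abundant glycoproteins of the lysosomal rim, had opposite signs and neither passed. Lamp1 had 633, 688 and 632 CPM in control livers and 503, 545 and 546 CPM in mutant livers (log2 -0.29 ± 0.09 SE, adjusted p = 0.0605, or 0.0447 with a filter on CPM).

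For Lamp2 the values were 625, 612 and 632 CPM in control livers and 675, 667 and 715 CPM in mutant livers (log2 0.14 ± 0.08 SE, adjusted p = 0.304). Each mutant library of Lamp1 was thus below its controls and each of Lamp2 above, by a margin smaller than the test required; under library totals Lamp2 was -0.26 and passed as lower, still above the median of -0.40 of all genes. Scarb2, the carrier that takes glucocerebrosidase to the lysosome, had 186, 158 and 144 CPM in control livers and 216, 196 and 202 CPM in mutant livers (log2 0.33 ± 0.11 SE, adjusted p = 0.0892), without overlap. Mcoln1, a calcium channel of the lysosomal membrane, gave 0.11 (adjusted p = 0.584) with overlapping groups.

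Tfeb (chr17:47737030-47792419, + strand) had 6.81, 7.67 and 6.79 CPM in control livers and 7.67, 7.78 and 6.77 CPM in mutant livers. The groups overlapped, and the log2 fold change was 0.06 ± 0.16 SE (adjusted p = 0.84). The 95% interval ran from -0.30 to 0.43, so this depth and spread leave room for a change of that size. TFEB is known to be controlled mainly by its location in the cell, which transcript levels do not show.

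Levels of different genes were compared as TPM, a transcript abundance scaled by length that sums to the same total in each library. In the controls Lamp1 (494 ± 22.4 TPM, SD, n = 3), Psap (474 ± 34) and Lamp2 (466 ± 11.3) led, followed by Ctsl (423 ± 40.2) and Ctsb (403 ± 9.52), and then Ctsz (331 ± 42.6), Ctsd (300 ± 4.49) and Ctsh (278 ± 19.9). Lamp1, Psap and Lamp2 lay within each other's spread. In the mutants Ctsl (340 ± 72.4) and Lamp2 (339 ± 23.4) came first and could not be separated, followed by Lamp1 (267 ± 10.1), Psap (263 ± 16.7), Ctsh (208 ± 13.3) and Ctsb (186 ± 7.38). Hexa moved from rank 12 to 17 and Asah1 from 21 to 25, while Ctsf moved from 24 to 18 and Gaa from 18 to 13. Tfeb was rank 33 in the controls (5.67 ± 0.374 TPM) and 32 in the mutants (3.92 ± 0.291 TPM). Ctsk was the lowest in both, at 0.957 ± 0.454 and 0.153 ± 0.0883 TPM. The TPM of the 37 genes summed to 4518, 4457 and 4076 in the controls and to 2751, 2415 and 2670 in the mutants, or 0.408 to 0.452% and 0.242 to 0.275% of each library's TPM. The Mup genes took 3.96 to 6.46% of the TPM in the controls and 23.9 to 29.6% in the mutants, which lowers the TPM of every other gene there, so TPM serves here for the order within a group and not for the difference between groups.

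**Figure D3:**
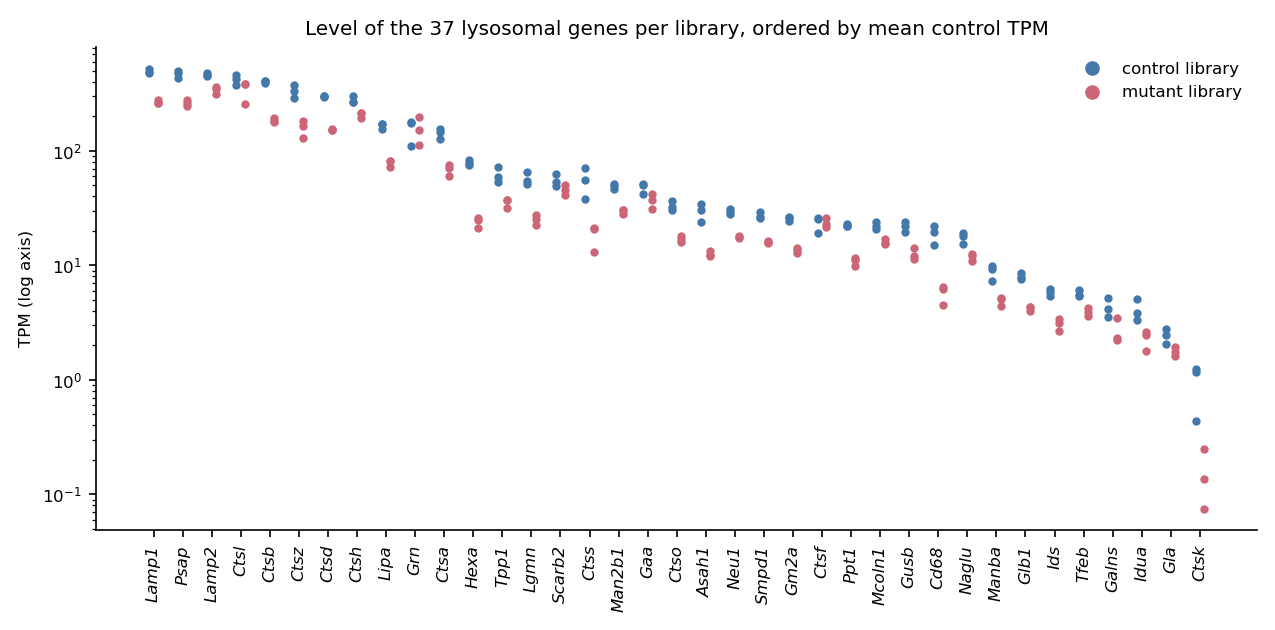
TPM of the 37 lysosomal genes in each of the 6 libraries on a log axis, ordered by the mean of the controls. The range runs from Lamp1 at 494 TPM to Ctsk at 0.957 TPM in the controls, and Ctsl and Lamp2 lead in the mutants.

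Other genes of the lysosomal system were read from lists outside the 37, beside 6.82% of all tested genes lower and 6.64% higher. Of 33 other lysosomal hydrolases 7 fell (21.2%) and 0 rose, with a median log2 fold change of -0.16. Siae, which removes acetyl groups from sialic acids (-0.70 ± 0.09, adjusted p = 0.00289), and the sulfatase Arsb (-0.60 ± 0.10, adjusted p = 0.00706) were among those that fell. Arsa, Ifi30, Pcyox1 and Smpdl3a fell too. Siae and Arsb passed with each library left out in turn.

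Of 35 other lysosomal membrane and transport proteins 4 fell (11.4%) and 0 rose, with a median of -0.09. Cd63, a tetraspanin of late endosomes, had 24.0, 30.5 and 17.7 CPM in control livers and 4.66, 5.24 and 3.26 CPM in mutant livers. This was the largest difference of a called lysosomal gene in these lists (log2 -2.45 ± 0.25 SE, adjusted p = 9.5e-04). Gpnmb, a glycoprotein of lipid-laden macrophages, stood at 2.42, 3.93 and 3.15 CPM against 0.55, 0.248 and 1.32 CPM (log2 -2.17 ± 0.55 SE, adjusted p = 0.0373). Tmem106b fell (-0.39 ± 0.09, adjusted p = 0.0279), as did the cholesterol carrier Npc2 (-0.42 ± 0.12, adjusted p = 0.0492). Cd63 passed with each library left out in turn. Gpnmb kept its call only without mutant replicate 3 (adjusted p up to 0.114), Tmem106b only without mutant replicate 2 (up to 0.108) and Npc2 only without control replicate 3 (up to 0.169). DESeq2 called 7 of these 35 genes lower and 1 higher, beside 1410 lower and 1197 higher among the 22732 genes it fitted. Of all tested genes, edgeR called 6.82% lower and 6.64% higher.

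Calls in the machinery that acidifies lysosomes and sorts enzymes to them are read beside all tested genes, of which 6.82% fell and 6.64% rose. Of 18 subunits of the vacuolar proton pump 1 fell (5.56%), Atp6v1a (-0.45 ± 0.11, adjusted p = 0.0323), and the median was -0.02. Of 26 genes of mannose 6-phosphate tagging and sorting 0 passed by edgeR in either direction, with a median of -0.12, while 3 had an unadjusted p under 0.05 and DESeq2 called 1 lower. Of 21 tested relatives and regulators of Tfeb 2 fell (9.52%), with a median of 0.02. These were Rragd, a GTPase that links amino acids to mTOR (-1.61 ± 0.37, adjusted p = 0.0269), and Fnip2, a partner of folliculin (-0.73 ± 0.19, adjusted p = 0.0433). Of 25 autophagy genes 1 rose (4%), Atg3, a conjugating enzyme of autophagosome formation (53.1, 53.8 and 53.5 CPM against 69.3, 72.0 and 73.1 CPM, log2 0.42 ± 0.09, adjusted p = 0.0179), and 0 fell, with a median of 0.19. Under library totals 0 of the 25 rose and 9 fell, while 2.05% of all tested genes rose and 31.6% fell. The median was then -0.21, beside -0.40 for all genes. Atg3 was then 0.02, and it was -0.17 by limma on log2(TPM + 1), neither passing. Of the 2 tested cathepsin inhibitors Cstb fell (-0.47 ± 0.12, adjusted p = 0.0368). Most of these calls were lost when libraries were left out in turn, as were many over all genes, while the log2 fold changes kept their sign. Cstb and Fnip2 passed only without mutant replicate 2 (adjusted p up to 0.117 and 0.127), Atp6v1a only without control replicate 2 (up to 0.117), and Atg3 only without mutant replicate 2 or mutant replicate 3 (up to 0.0686). Rragd passed without control replicate 3, mutant replicate 2 or mutant replicate 3 and in no other case (up to 0.0877).

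**Figure D4:**
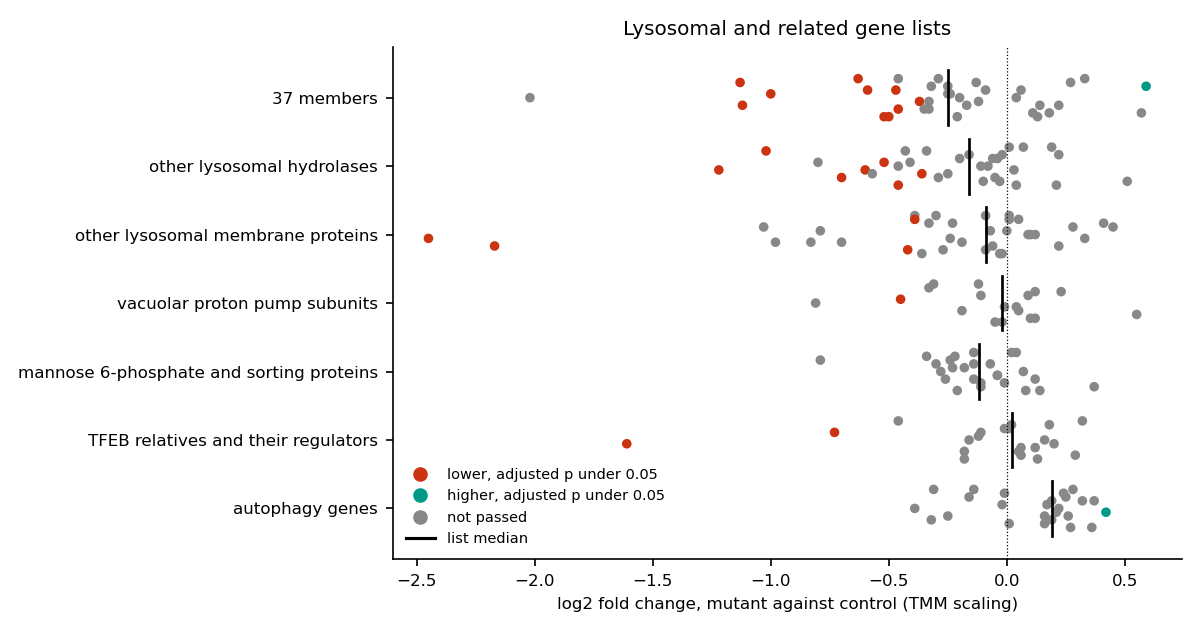
Log2 fold changes, mutant against control with TMM scaling, for the 37 lysosomal genes and 6 related lists, 1 point per tested gene and a bar at each list's median. The medians run from -0.25 for the 37 genes to 0.19 for the autophagy genes, and the called genes are nearly all lower.

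Markers of the liver's cell types moved between the groups as well, and their part in the lysosomal values was not tested. Their counts are read beside 6.82% of all tested genes lower and 6.64% higher. Of 15 Kupffer cell markers 3 fell (Cd5l, C1qb and C1qc) with a median of -0.65, and the summed level of the list was 633, 474 and 499 CPM in control livers and 367, 297 and 455 CPM in mutant livers. Cd207 (1.25, adjusted p = 0.0657) and Cd163 (0.35, adjusted p = 0.49) had positive log2 fold changes without passing. The markers that define Kupffer cells most closely were detected in every library. Clec4f ranged from 56.8 to 77.8 CPM in control livers and from 28.7 to 57.7 CPM in mutant livers (adjusted p = 0.106), and Vsig4 (adjusted p = 0.202) and Timd4 (adjusted p = 0.164) did not pass either. DESeq2 called 8 of the 15 lower and 1 higher, beside 1410 lower and 1197 higher among the 22732 genes it fitted. Of 15 markers of monocyte-derived macrophages 8 fell, with a median of -1.13 and summed levels of 227, 246 and 188 CPM in control livers and 106, 102 and 101 CPM in mutant livers. Ccr2, the receptor that brings monocytes into tissue (-2.38, adjusted p = 0.00172), and Lgals3 (-2.35, adjusted p = 1.0e-03) were among them, and Trem2 (-0.36, adjusted p = 0.583) was not. Cd68, Ctss and Gpnmb, which macrophages are known to express strongly, were among the genes that fell. These genes do not stand for the set, in which Grn (0.57, adjusted p = 0.133) and Ctsl (0.27, adjusted p = 0.247) were positive. A link of their fall to the macrophage markers was not tested. In bulk liver, fewer cells of a type and less RNA per cell cannot be told apart.

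Stellate cell markers were lower in 7 of 12 genes (58.3%), beside 6.82% of all tested genes lower and 6.64% higher. Their median was -0.93, with summed levels of 378 to 393 CPM in control livers and 149 to 193 CPM in mutant livers. Of 10 endothelial markers 2 fell, with a median of -0.62 and sums of 157 to 286 CPM against 121 to 181 CPM. Of 4 tested neutrophil markers 2 fell, with sums of 5.29 to 6.28 CPM against 1.52 to 2.25 CPM. Of 10 lymphocyte markers 1 rose (Cd4), with sums of 4.88 to 7.42 CPM against 5.68 to 6.04 CPM, and Cd3d was listed at 0 in mutant replicate 2. Of 6 tested biliary markers 1 rose (Sox9) and 1 fell (Spp1), with sums of 79.1 to 108 CPM against 48.5 to 63.1 CPM. The lower sum followed Spp1, which stood at 56.1, 83.2 and 61.2 CPM in control livers and 33.4, 36.9 and 21.5 CPM in mutant livers. Spp1 is also in the list of monocyte-derived macrophage markers and is counted there as fallen. Of 11 hepatocyte markers 8 rose and 0 fell after TMM scaling, with a median of 0.63, whereas under library totals 4 rose and 2 fell, with a median of 0.24 beside -0.40 for all genes. Their summed level was 76360 to 88432 CPM in control livers and 94914 to 104577 CPM in mutant livers, but 74466 to 86553 TPM and 61243 to 70287 TPM, so the direction of the sum turned with the scaling. The label of liver matched these high levels. Alb itself was 0.06 (adjusted p = 0.813).

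**Figure D5:**
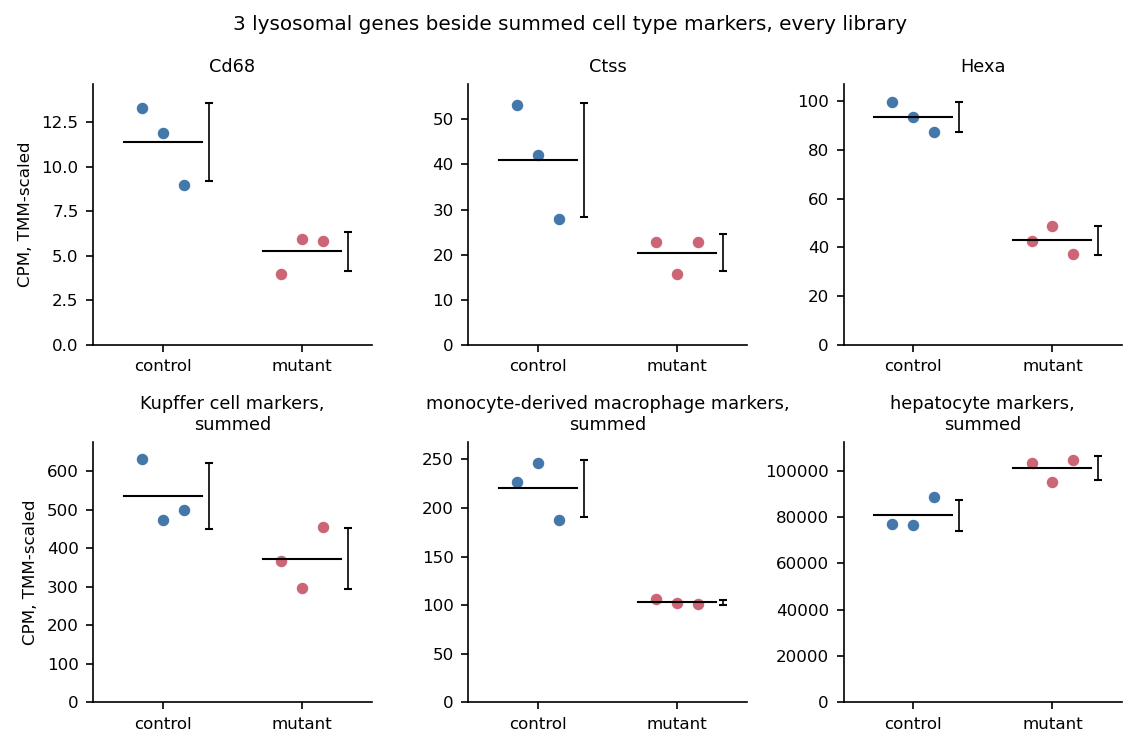
TMM-scaled CPM per library of Cd68, Ctss and Hexa beside the summed CPM of Kupffer cell, monocyte-derived macrophage and hepatocyte markers, each axis from 0, with group means and SD of 3 libraries. Cd68, Ctss and Hexa lie lower in every mutant library, as do the summed macrophage markers, and the summed hepatocyte markers lie higher on this scale but lower in TPM.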

How the data were processed

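Poly(A)-enriched liver RNA was sequenced as paired reads on a NovaSeq, per the labels' protocols. cutadapt, STAR and build mm10 are named in the submitters' processing notes. Not given in the sources used here are the counting program, annotation, versions and strandedness. For each library the authors deposited a table of estimated counts and a table of TPM. Where TPM exceeded 0.5 throughout (10983 genes), each deposited estimated count was the TPM multiplied by 1 gene-specific and 1 library-specific constant (largest relative deviation 7.2e-10), so they are not read numbers.

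Estimated counts were rounded and tested with edgeR 4.0.16 (R 4.3.3): filterByExpr, TMM, the quasi-likelihood F-test on group, and Benjamini-Hochberg adjustment over 14286 genes, called at 0.05. Adjusted p-values are from this test. SE came from the F statistic. The procedure was tested on simulated data that did not include the rise of the Mup genes, so that test does not bear on the choice of scaling. Positions and exon overlaps are from GENCODE on mm10. All 37 members are named. Of the related lists, up to 3 called genes with the smallest p per direction are named. Of marker lists, names were taken from the first 3 genes and up to 2 called genes, and not all of these are named. The stellate, endothelial and neutrophil lists are given by counts and sums, with no gene named. Arsa, Ifi30, Pcyox1, Smpdl3a, Npc2, Cd5l, Cd207, Cd163 and the overlap partners were named after their values were seen. A gene of the related lists is not reported here. Members and lists were chosen with earlier results of these data known. No library pair was a near-duplicate (chi-square at least 47.81 per gene). Alternatives were RLE factors, library totals, other filters, robust fitting, DESeq2 1.42.0, limma 3.58.1 on log2(TPM + 1) or log2(TPM + 0.1), a replicate block, each library left out, and, chosen after seeing the data, library totals without Mup genes.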

Additional observations from a re-analysis of the deposited data

How the results depend on the processing

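All 10 lower members remained lower under the 11 alternatives that kept every library. Hexa, Ctsb and Lipa also kept their calls with each library left out; then 3 to 8 members were lower and 0 to 1 higher, and over all genes 426 to 758 were higher and 430 to 756 lower. DESeq2 and the fit with no filter each gave 2 higher members, Ctsf and Grn, and 11 lower ones, with Ctsz added; the CPM filter gave 13 lower, with Ctso, Gm2a and Lamp1 added. Library totals and limma on TPM lowered the median of all genes. Library totals gave 293 genes higher and 4508 lower, 0 members higher and 25 lower, with a member median of -0.65. Library totals without Mup genes gave 407 and 1975 genes, 0 and 18 members and -0.46. limma on log2(TPM + 1) gave 217 and 7362 genes, 0 and 31 members and -0.75; with no filter, 190 and 6391 genes, 0 and 29 members and -0.75; on log2(TPM + 0.1), 211 and 7315 genes, 0 and 31 members and -0.81. Beside the median of all genes (-0.40, -0.21, -0.48, -0.24 and -0.55 in that order) the member medians lay -0.25, -0.25, -0.26, -0.51 and -0.26 away. Where only the scaling changed, this distance could hardly differ, so it does not test the result.

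Negative members rose from 26 of 37 to 32 by library totals without Mup genes, 35 by library totals and 35 or 36 by limma. Signs that turned without passing the test in any fit were those of Ctsl, Gla and Scarb2. Grn turned negative by limma without passing there, although it passed as higher by DESeq2 and with no filter. The following also turned between fits and passed in at least 1 fit. Galns turned positive without control replicate 2 and without mutant replicate 3, not passing there, and passed as lower by limma with the filter, on log2(TPM + 1) and log2(TPM + 0.1). Lamp2 was -0.26 by library totals and -0.46 by limma. By limma, with log2(TPM + 0.1) first and log2(TPM + 1) after it, Mcoln1 was -0.49 and -0.46, Tfeb -0.52 and -0.44, Naglu -0.55 and -0.52, Gaa -0.38 and -0.37, Atg3 -0.18 and -0.17, and Ctsh -0.42 in each. The cause was not tested.

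With the replicate block, 11 members were lower, with Ctsz added, and 1 higher, and over all genes 775 were higher and 783 lower; Tmem106b, Fnip2 and Npc2 lost their calls. Deviations of same-numbered libraries correlated at 0.071, -0.01 and 0.106. Control replicates 1 and 3 correlated best with their same-numbered mutants, and control replicate 2 with mutant replicate 1 (0.075). Correlations this small cannot show whether the numbers pair the libraries. The 3 libraries per group and estimated counts limit the precision, most for Ctsk.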
